A study of Mus musculus with 44 samples.

Results

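Messenger RNA of 8 C-type lectin receptor genes of myeloid cells was followed in sorted lymph node dendritic cells (DCs): Clec7a, Clec4n, Clec4d, Clec4e, Clec5a, Clec12a, Clec4b1 and Clec2d. The genes were chosen by symbol from the 14699 genes of the expression table, with earlier results of these data known. All 8 were present, and all 8 were among the 11963 genes tested. Those tested reached 1 CPM (reads of the gene in a library scaled to 1000000 reads) in at least 5 of the 44 libraries. Cells high in MHCII and positive for CD45 and CD11c were taken by sorting from inguinal nodes, which drain the injection site, 24 h after subcutaneous injection at zeitgeber time (ZT, hours after light onset) 3, 9, 15 or 21. At each of the 4 timepoints there were 5 WT mice given B16-F10-OVA cells (20 libraries, hereafter WT), 3 KO mice given the same cells (12 libraries) and 3 WT mice given PBS as a sham injection (12 libraries, hereafter PBS). B16-F10-OVA is a mouse melanoma line that expresses ovalbumin. KO mice are Clec9a-cre:Bmal1 flox animals, homozygous for the floxed clock gene Arntl (Bmal1) and heterozygous for a Cre recombinase under Clec9a, itself a C-type lectin gene that neighbours 3 of the genes described here. The labels give the control mice only as WT. All animals were females of 8 to 12 weeks kept in 12 h of light and 12 h of darkness.

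C-type lectin receptors bind carbohydrates, lipids and products of dying cells at the surface of macrophages, monocytes, neutrophils and DCs. The activating receptors pass their signal to the kinase SYK, either through a motif in their own tail, as Clec7a (Dectin-1) does, or through a partner chain, FcRγ (Fcer1g) for Clec4n (Dectin-2), Clec4d (MCL), Clec4e (Mincle) and Clec4b1 (DCAR), and DAP12 (Tyrobp) for Clec5a (MDL-1). SYK then acts through the CARD9, BCL10 and MALT1 complex on NF-κB and cytokine genes. Clec12a (MICL) carries an inhibitory motif that recruits phosphatases, and Clec2d (Clr-b) is a ligand, bound by the inhibitory receptor Klrb1b of natural killer (NK) cells.

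All 8 genes lie on chromosome 6 (GENCODE annotation of GRCm38, the mm10 build of the files), in 3 places. Clec5a is alone at chr6:40574894-40585821. The Dectin-2 group comprises Clec4b1 (chr6:123049962-123071555), Clec4n (chr6:123229843-123247021), Clec4d (chr6:123262111-123275265) and Clec4e (chr6:123281789-123289870). The Dectin-1 group comprises Clec2d (chr6:129180615-129186534), Clec12a (chr6:129342691-129365303) and Clec7a (chr6:129461591-129472779), with Clec9a at chr6:129408862-129424763 between the last pair. Clec5a, Clec4e and Clec7a are read from the minus strand and the others from the plus strand.

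The DNA before the start of these genes was compared because most of them moved in the same direction. RefSeq promoter windows (GRCm38.p6) matched 7 of the 8 genes by symbol or gene ID, all but Clec4n. In the 250 bases before the start, 6 letter strings were searched on both strands, chosen with the sequences and the expression results in view. GAGGAA, the core bound by the myeloid factor PU.1 and other ETS factors, was present in 6 of the 7 windows (Clec7a, Clec4d, Clec4e, Clec5a, Clec12a and Clec4b1) and in 23.4% of the 32536 promoter windows of the genome. Clec2d was the window without it. It held the half-site AGGTCA of ROR and REV-ERB receptors, found in 14.0% of all windows, at 3 positions. The clock E-box CACGTG (6.04% of all windows) and the AP-1 site TGACTCA (4.45%) were in none of the 7. Clec12a alone held TTGCGCAA, a C/EBP palindrome (0.166% of all windows), and TTATGTAA, the D-box bound by DBP and NFIL3 (0.811%). A match of letters is a description and not evidence that a factor binds there.

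For 4 of the genes the window is shown 5′ to 3′ on the strand of the gene, ending at the base before the start, for a gene that was higher in KO and lower in WT than in PBS (Clec7a), the gene with the largest differences (Clec4e), the inhibitory receptor, with no called KO difference (Clec12a) and the gene without GAGGAA (Clec2d). Capitals mark the matches named above, and matches on the other strand appear reversed and complemented. The windows are chr6:129472780-129473029 (minus), chr6:123289872-123290121 (minus), chr6:129349994-129350243 (plus) and chr6:129180365-129180614 (plus).
Clec7a: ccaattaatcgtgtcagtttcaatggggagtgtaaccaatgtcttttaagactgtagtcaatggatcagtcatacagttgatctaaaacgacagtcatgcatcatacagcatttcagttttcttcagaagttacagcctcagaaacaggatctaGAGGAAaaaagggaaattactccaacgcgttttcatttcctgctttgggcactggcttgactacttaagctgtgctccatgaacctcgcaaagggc
Clec4e: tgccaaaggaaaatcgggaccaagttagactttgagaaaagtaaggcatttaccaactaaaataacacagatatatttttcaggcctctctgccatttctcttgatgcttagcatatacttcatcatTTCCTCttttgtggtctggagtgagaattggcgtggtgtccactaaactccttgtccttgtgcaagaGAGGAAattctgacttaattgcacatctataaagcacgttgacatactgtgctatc
Clec12a: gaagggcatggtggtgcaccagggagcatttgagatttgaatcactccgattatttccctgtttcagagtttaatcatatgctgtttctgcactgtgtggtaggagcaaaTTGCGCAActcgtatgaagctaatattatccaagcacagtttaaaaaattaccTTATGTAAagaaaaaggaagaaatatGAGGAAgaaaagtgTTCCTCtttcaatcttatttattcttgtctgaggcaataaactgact
Clec2d: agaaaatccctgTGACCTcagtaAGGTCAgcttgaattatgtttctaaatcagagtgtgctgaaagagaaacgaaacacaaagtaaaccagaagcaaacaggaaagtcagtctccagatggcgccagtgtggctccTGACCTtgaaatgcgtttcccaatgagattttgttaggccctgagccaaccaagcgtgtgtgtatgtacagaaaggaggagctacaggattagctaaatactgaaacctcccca
The Clec12a window precedes the RefSeq start, which lies inside the longer GENCODE gene.

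Reads assigned to genes numbered 20088014 to 28962672 in WT, 29406729 to 55799165 in KO and 28003330 to 49590056 in PBS libraries, so that depth moved with the groups. Defining genes of DCs were present: Flt3 averaged 597 ± 88.1 CPM (SD, n = 20) in WT and H2-Ab1 was at least 1461 CPM in every library. Arntl, the targeted gene, was higher in the libraries labelled KO (11.5 to 38.0 CPM, median 18.0) than in WT (8.67 to 24.4, median 14.8), which goes against the label, with a log2 difference of 0.38 (SE 0.12, limma, adjusted p = 0.0153). Its value counts reads over the whole gene and does not show the floxed exon alone, and the libraries are therefore named by their label. Clec9a, whose promoter drives the Cre, was lower in libraries labelled KO (0 to 2.94 CPM, median 0.589) than in WT (0.315 to 3.30, median 1.80), a log2 difference of -0.83 (limma, adjusted p = 0.00179).

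Other measures touch every comparison. Summed markers of monocytes and macrophages (20 of the listed genes tested) ranged from 681 to 1602 CPM in WT, from 1318 to 4366 in libraries labelled KO and from 2714 to 4543 in PBS, and summed genes of dissociation stress from 5331 to 9985, 9007 to 14187 and 9943 to 16250. These sums moved with the groups, and their part in the lectin results was not tested. In bulk RNA, fewer cells of a type and less RNA per cell cannot be told apart.

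Levels of different genes were compared as CPM per kilobase of exon. In WT, Clec2d was highest with 16.1 ± 5.75 (SD, n = 20), followed by Clec12a with 7.95 ± 1.31, Clec7a with 6.79 ± 2.50 and Clec4n with 5.33 ± 2.53, neighbours that lay within 1 SD of each other. Clec4b1 (3.08 ± 2.19) and Clec5a (0.982 ± 0.562) came next, and Clec4d (0.331 ± 0.216) and Clec4e (0.155 ± 0.186) were lowest. In PBS the order was Clec2d (22.1 ± 5.69, n = 12), Clec7a (17.7 ± 4.64), Clec4n (14.7 ± 4.21), Clec12a (10.9 ± 2.06), Clec4b1 (7.58 ± 3.58), Clec5a (2.43 ± 0.876), Clec4e (0.965 ± 0.504) and Clec4d (0.554 ± 0.362). These orders are of means over the 4 timepoints and changed with time. At ZT15 in WT, Clec7a (9.03) and Clec4n (8.42) had higher means than Clec12a (7.21), and at ZT3 in PBS, Clec7a (22.7) was above Clec2d (20.2) and Clec12a (12.9) above Clec4n (12.3). At least 1 CPM was reached by Clec7a, Clec12a, Clec4n and Clec2d in all 44 libraries, by Clec5a in 43, Clec4b1 in 38, Clec4e in 27 and Clec4d in 13.

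**Figure D1:**
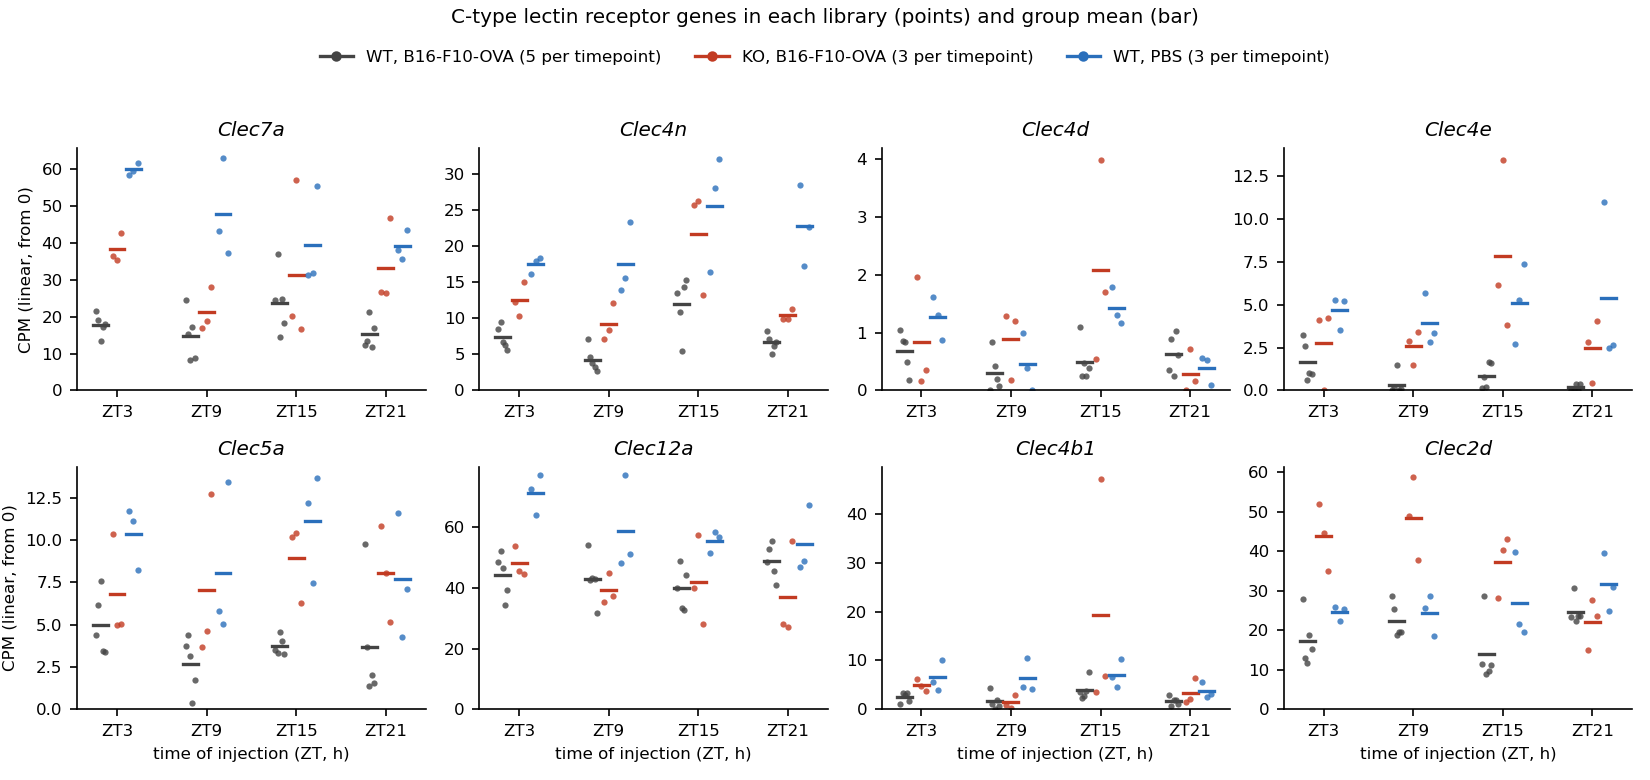
CPM of the 8 genes (linear axes from 0) in each library by time of injection, with WT in grey, libraries labelled KO in red and PBS in blue; points are single libraries and bars group means. Clec7a, Clec4n, Clec4e and Clec5a are lowest in WT at every timepoint by their means, and the KO ZT15 library with 47.3 CPM of Clec4b1 stands above all others.

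The comparisons averaged over the 4 timepoints asked whether the lectin genes differed with genotype (libraries labelled KO against WT, both with tumour cells) and with treatment (WT with tumour cells against PBS). Both use the same 20 WT libraries, so that they are not independent and are given side by side. In what follows, higher or lower with tumour cells names only WT against PBS, groups that also differed in depth. Libraries labelled KO also came from mice given tumour cells, and no gene was tested between them and PBS. Of the 8 genes, 5 were higher in libraries labelled KO (limma, adjusted p under 0.05), where 33.7% of all genes tested were called and 23.5% were called higher, and none was lower. The count was 5 also without replicate 2 of KO ZT15 and replicate 1 of KO ZT21, libraries picked after seeing the data. The median log2 difference of the 8 genes was 0.79, against 0.10 over all genes tested. With tumour cells, 7 of the 8 were lower in WT than in PBS, where 37.9% of all genes were called and 24.6% were called lower, with a median log2 difference of -1.28 against -0.04 over all genes tested. The members and the gene lists below were chosen with earlier results of these data known. Counts set against the shares of all genes therefore describe the lists and are no test of them. Fold changes are on the log2(CPM + 0.5) scale, which understates changes of the lowest genes. Libraries stand for single mice, and the p-values measure the spread between these libraries. For WT and KO mice with tumour cells the authors give 2 independent experiments. The labels do not say which library belongs to which experiment, and no such term was fitted. Spread between mice and between experiments therefore cannot be told apart here. If the experiments were unevenly divided among the groups, their part could not be told apart from genotype or treatment.

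The split of all calls depended on scaling. With the deposited library-size scaling, 2813 genes were higher and 1218 lower in libraries labelled KO, and with median-of-ratios scaling 1745 and 1754. For the tumour cells the split was 1589 higher and 2940 lower, against 2079 and 2429. None of the 8 genes changed direction with the scaling.

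**Figure D2:**
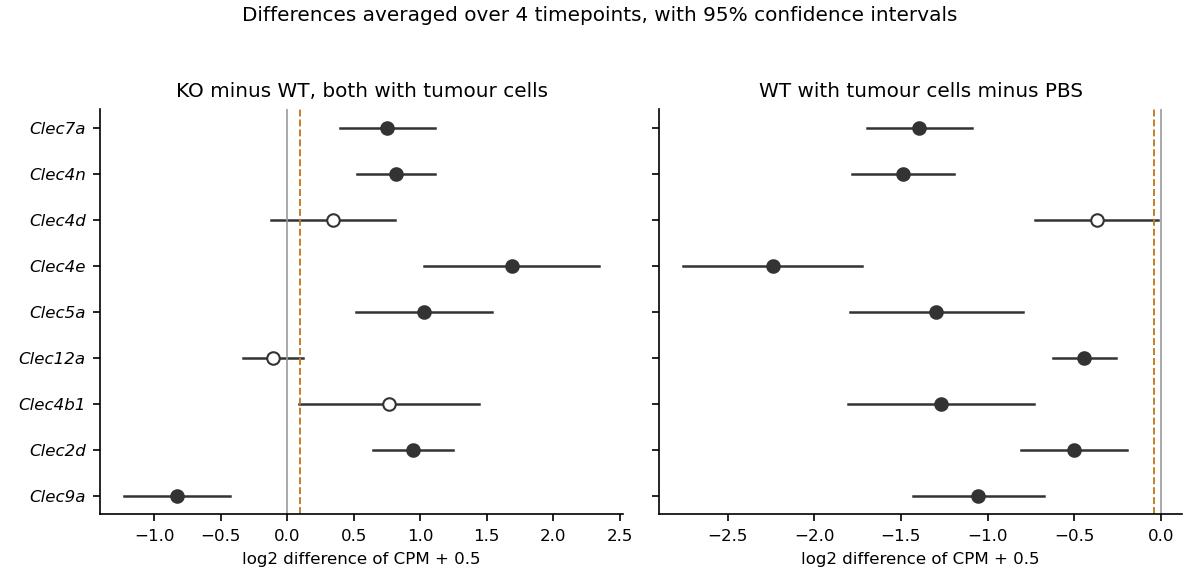
Log2 differences of CPM + 0.5 averaged over the 4 timepoints, with 95% confidence intervals, for libraries labelled KO against WT (left) and WT with tumour cells against PBS (right). Filled points have an adjusted p under 0.05 in limma, the grey line marks no difference and the dashed line the median of all genes tested; the 5 filled lectin points on the left lie above 0 and the 7 on the right below, while Clec9a is below 0 in both.

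Clec7a, the β-glucan receptor Dectin-1, ranged from 8.37 to 36.9 CPM in WT (median 17.2), from 16.8 to 57.2 in libraries labelled KO (median 27.4) and from 31.2 to 62.9 in PBS (median 43.4). PBS values lay above all WT values at ZT3, ZT9 and ZT21 but overlapped them at ZT15, where 1 WT library reached 36.9. Clec7a was 1.69-fold higher in libraries labelled KO than in WT (log2 difference 0.75, SE 0.17, limma, adjusted p = 0.00153). It was lower in WT than in PBS by 1.39 on the log2 scale (SE 0.15, adjusted p = 2.14e-08). At the separate timepoints the KO difference was 1.09 at ZT3, 0.58 at ZT9, 0.24 at ZT15 and 1.09 at ZT21, and the groups did not overlap at ZT3 and ZT21. The difference from PBS was smallest at ZT15 (-0.73) and lay between -1.37 and -1.74 at the other timepoints. The ZT15 libraries labelled KO were far apart from each other, with 20.2, 57.2 and 16.8 CPM.

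Clec4n, the α-mannan receptor Dectin-2, ranged from 2.72 to 15.4 CPM in WT (median 6.71), from 7.12 to 26.4 in libraries labelled KO (median 11.7) and from 13.9 to 32.1 in PBS (median 18.2). At each timepoint every PBS library was above every WT library. Clec4n was 1.76-fold higher in libraries labelled KO than in WT (log2 difference 0.82, SE 0.14, limma, adjusted p = 7.96e-05). It was lower in WT than in PBS by 1.49 (SE 0.14, adjusted p = 4.04e-09). At the separate timepoints the KO difference was between 0.62 (ZT21) and 1.05 (ZT9).

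Clec4e, the receptor Mincle for mycobacterial glycolipid and a product of dead cells, showed the largest differences of the 8 genes. It ranged from 0 to 3.25 CPM in WT (median 0.394, listed at 0 in 3 libraries), from 0 to 13.5 in libraries labelled KO (median 3.62) and from 2.45 to 11.02 in PBS (median 4.37). The lowest PBS library was above all but 2 of the 20 WT libraries, both of ZT3. Clec4e was higher in libraries labelled KO than in WT by 1.69 on the log2 scale (SE 0.32, limma, adjusted p = 0.000206). It was lower in WT than in PBS by 2.24 (SE 0.25, adjusted p = 6.50e-08). These sizes depended on the processing. The first ranged from 1.28 (array weights) to 2.38 (pseudocount 0.1). The difference from PBS ranged from -1.76 (pseudocount 1) to -3.18 (pseudocount 0.1). The KO difference was 0.18 at ZT3, where 1 library labelled KO was listed at 0, and 1.91 to 2.62 at the other timepoints, where the groups did not overlap. The libraries labelled KO read 4.10, 0 and 4.25 CPM at ZT3, 2.90, 1.498 and 3.39 at ZT9, 6.17, 13.5 and 3.84 at ZT15 and 2.86, 0.451 and 4.05 at ZT21. PBS libraries read 5.29, 3.51 and 5.23 at ZT3, 5.71, 2.80 and 3.36 at ZT9, 2.73, 5.30 and 7.36 at ZT15 and 11.02, 2.45 and 2.68 at ZT21. The groups labelled KO and PBS thus overlapped at every timepoint.

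Clec4d, the partner receptor MCL, was low throughout, with 0 to 1.101 CPM in WT (median 0.458), 0 to 3.99 in libraries labelled KO (median 0.632) and 0 to 1.79 in PBS (median 0.936). The 3 ranges overlapped. Neither difference passed the test (KO against WT 0.34, SE 0.23, adjusted p = 0.261, and WT against PBS -0.37, SE 0.17, adjusted p = 0.0940). The 95% interval of the KO difference, -0.13 to 0.81, includes differences as large as that of Clec7a.

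Clec5a, which pairs with DAP12, ranged from 0.369 to 9.77 CPM in WT (median 3.48), from 3.69 to 12.7 in libraries labelled KO (median 7.16) and from 4.29 to 13.7 in PBS (median 9.71). Only 1 WT library, at ZT21, exceeded 8 CPM. Clec5a was 2.04-fold higher in libraries labelled KO than in WT (log2 difference 1.03, SE 0.25, limma, adjusted p = 0.00239). It was lower in WT than in PBS by 1.30 (SE 0.24, adjusted p = 0.000125). Its KO difference was 0.39 at ZT3 and 1.13 to 1.30 later, with groups that overlapped at all timepoints but ZT15. WT and PBS values overlapped only at ZT21.

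Clec4b1, the DC receptor DCAR, ranged from 0 to 7.64 CPM in WT (median 2.15), from 0.316 to 47.3 in libraries labelled KO (median 3.61) and from 2.51 to 10.4 in PBS (median 5.07). The 47.3 CPM belong to replicate 2 of KO ZT15, which was the highest of the 3 KO ZT15 libraries for 7 of the 8 genes, all but Clec2d. It also had the highest monocyte and macrophage sum of all libraries labelled KO, 4366 CPM. Clec4b1 was lower in WT than in PBS by 1.27 (SE 0.26, limma, adjusted p = 0.00034). Its KO difference of 0.76 did not pass the test (SE 0.33, adjusted p = 0.0754), and it was 0.50 without that library. At ZT9 the KO difference was -0.02, and at ZT3, the one timepoint without overlap, it was 0.94. It was 1.43 at ZT15, with the 47.3 CPM library included, and 0.71 at ZT21.

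Clec12a, the inhibitory receptor MICL, had the smallest KO difference of the 8 genes. It ranged from 31.8 to 55.6 CPM in WT (median 43.8), from 27.2 to 57.5 in libraries labelled KO (median 42.4) and from 47.0 to 77.4 in PBS (median 57.7). WT and KO values overlapped over most of their range, with a log2 difference of -0.11 (SE 0.11, 95% interval -0.33 to 0.12, adjusted p = 0.483). Clec12a was lower in WT than in PBS by 0.44 (SE 0.09, limma, adjusted p = 0.00025), and WT and PBS overlapped at ZT9 and ZT21.

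Clec2d, the ligand of Klrb1b, was the one gene whose median was higher in libraries labelled KO (39.0 CPM, 14.99 to 58.8) than in PBS (25.4 CPM, 18.4 to 39.6). In WT it ranged from 8.83 to 30.7 (median 19.6), which overlaps PBS at every timepoint. Clec2d was 1.92-fold higher in libraries labelled KO than in WT (log2 difference 0.94, SE 0.15, limma, adjusted p = 1.78e-05). It was lower in WT than in PBS by 0.50 (SE 0.15, adjusted p = 0.00866). The difference between libraries labelled KO and PBS was not tested. Its receptor gene Klrb1b, of NK cells, averaged 3.04 CPM in WT, 11.2 in libraries labelled KO and 18.7 in PBS, and was higher in libraries labelled KO (1.82, adjusted p = 5.24e-09) and lower with tumour cells (-2.41, adjusted p = 1.21e-09).

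Clec2d and Clec4b1 differ from the others in how they were counted. The deposited values of the other 6 genes were whole reads in all 44 libraries, those of Clec2d in 2 and those of Clec4b1 in 4, the rest being fractions of a read (tolerance 0.02 reads). The sources used here do not say how fractions arose, and levels of this pair are uncertain where similar genes share reads.

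Partner chains and kinases of lectin signalling were measured by 34 genes. In libraries labelled KO, 12 were higher and 3 lower, and with tumour cells 5 were higher and 11 lower. These are 15 and 16 of the 34, against 33.7% and 37.9% of all genes, and the median log2 differences of the list were 0.19 and -0.05. By the smallest adjusted p these were, for KO, Hras (-0.49), Lat2 (0.77), Nfatc1 (0.55), Pycard (-0.35), Bcl10 (0.23) and Map3k7 (0.46). Fcer1g, the FcRγ chain, was higher in libraries labelled KO by 0.29 (adjusted p = 0.0137) and lower with tumour cells by 0.38 (log2 difference -0.38, adjusted p = 0.0006), whereas Tyrobp, the DAP12 chain, was lower in libraries labelled KO (-0.21, adjusted p = 0.0239) and was not called with tumour cells. Syk and Card9 were called in neither comparison. The largest differences with tumour cells in the list were those of Vav2 (1.12), Lat2 (-0.97) and Hcst (-0.85).

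Of 13 inhibitors of lectin signalling, 5 were higher and none lower in libraries labelled KO: the adaptors Dok2 (1.16, adjusted p = 4.18e-07) and Dok3 (1.05), Socs1 (0.63), the NF-κB inhibitor Tnfaip3 (0.54) and the phosphatase Inpp5d (0.44). With tumour cells Dok2 (-1.33), Dok3 (-0.80), Socs1 (-0.57) and Inpp5d (-0.36) were lower, and Cblb (0.25) and Dok1 (0.16) were higher. The median log2 differences of the 13 were 0.14 and -0.17, and their shares called were near those of all genes. Ptpn6, the phosphatase recruited by Clec12a, was called in neither.

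Cytokine and early response genes that lectin receptors can induce (23 tested) were called in 1 direction in each comparison, 16 higher in libraries labelled KO and 19 lower with tumour cells, against 33.7% and 37.9% of all genes called. The smallest adjusted p in libraries labelled KO belonged to Nr4a1 (1.92), Egr2 (2.20), Ccl4 (2.16), Egr1 (1.72), Ccl3 (1.599) and Egr3 (1.45). With tumour cells the corresponding log2 differences were -2.44, -2.64, -3.57, -1.84, -2.68 and -1.98. Egr1 is also on the list of dissociation stress, of whose 15 genes 12 were higher and 1 lower in libraries labelled KO, while 2 were higher and 13 lower with tumour cells.

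Among 29 other C-type lectins tested, 15 were higher and 2 lower in libraries labelled KO, and 1 was higher and 19 lower with tumour cells. These are 17 and 20 of the 29, against 33.7% and 37.9% of all genes. The 2 lower in libraries labelled KO were Clec9a and Clec1a (-0.78), and the 1 higher with tumour cells was Ly75 (0.52), the endocytic receptor DEC-205. By adjusted p the list was led in libraries labelled KO by the activation marker Cd69 (2.19), Klrb1b, the macrophage lectin Cd209b (1.72), the NK receptors Klrb1c (2.41) and Klrb1f (2.16), and Clec4a3 (1.31). The same log2 differences with tumour cells were -2.40 for Cd69, -2.23 for Cd209b, -3.13 for Klrb1c, -3.07 for Klrb1f and -1.66 for Clec4a3.

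Position on the chromosome was examined because the Cre is expressed under Clec9a. Of the 30 genes tested within 1 Mb of Clec9a, 15 were higher and 2 lower in libraries labelled KO, and 1 was higher and 21 lower with tumour cells. These are 17 and 22 of the 30, against 33.7% and 37.9% of all genes. The set is not separate from the other lists. It includes Clec2d, Clec12a and Clec7a, and genes counted above as other C-type lectins, such as Cd69 and Klrb1b. Klrb1c, Klre1 and Klrk1 are among those counted below as NK markers. The part of position in these differences was not tested. Those higher in libraries labelled KO were Cd69, Klrb1a, Klrb1b, Klrb1c, Klrb1f, Klra3, Klra7, Klra8, Klra9, Klra17, Klrc1, Klrc2, Fkbp4, Clec2d and Clec7a, and those lower were Clec1a and Klri1. With tumour cells Klri1 was higher, and the 21 lower were Cd69, Klra1, Klra3, Klra4, Klra7, Klra8, Klra9, Klra17, Klrb1a, Klrb1b, Klrb1c, Klrb1f, Klrc1, Klrc2, Klre1, Klrk1, Fkbp4, BC035044, Clec2d, Clec7a and Clec12a. Most of these are NK cell receptor genes, and summed NK markers ranged from 73.1 to 128 CPM in WT, 102 to 283 in libraries labelled KO and 176 to 798 in PBS. Within 0.25 Mb of Clec4n, 5 genes were tested, of which Clec4a2 (1.54) and Clec4e were higher in libraries labelled KO and Clec4a2 (-1.69), Clec4b1 and Clec4e lower with tumour cells.

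Markers of other cells were counted in the same comparisons, against 33.7% of all genes called for genotype and 37.9% for treatment. Of 20 monocyte and macrophage markers, 16 were higher in libraries labelled KO and 19 lower with tumour cells, with none in the other direction. Csf1r averaged 23.8 CPM in WT, 58.6 in libraries labelled KO and 74.8 in PBS, and the monocyte chemokine receptor Ccr2 8.98, 47.3 and 59.0. Of 7 neutrophil markers, 2 were higher in libraries labelled KO and 3 lower with tumour cells, at summed levels of 2.79 to 59.8 CPM over the 3 groups, and S100a8 was listed at 0 in 9 of 20 WT libraries. Of 13 markers of type 2 conventional DCs, 8 were higher in libraries labelled KO and 8 lower with tumour cells, and of 11 general DC markers 1 was higher in libraries labelled KO, while 2 were higher and 4 lower with tumour cells. For type 1 conventional DCs the 12 markers included 5 that were higher and 1 lower in libraries labelled KO, and 1 higher and 11 lower with tumour cells. For plasmacytoid DCs these counts were 5, 1, 0 and 9 of 11, for Langerhans cells 4, 0, 0 and 5 of 8, for migratory mature DCs 3, 1, 7 and 2 of 16, for NK cells 7, 0, 0 and 10 of 11, for T cells 5, 2, 3 and 13 of 19, and for B cells 3, 1, 1 and 6 of 13. For genotype the shares called of the T cell, B cell, neutrophil, migratory mature DC and general DC markers were near or under that of all genes. The part of these cells in the lectin differences was not tested.

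**Figure D3:**
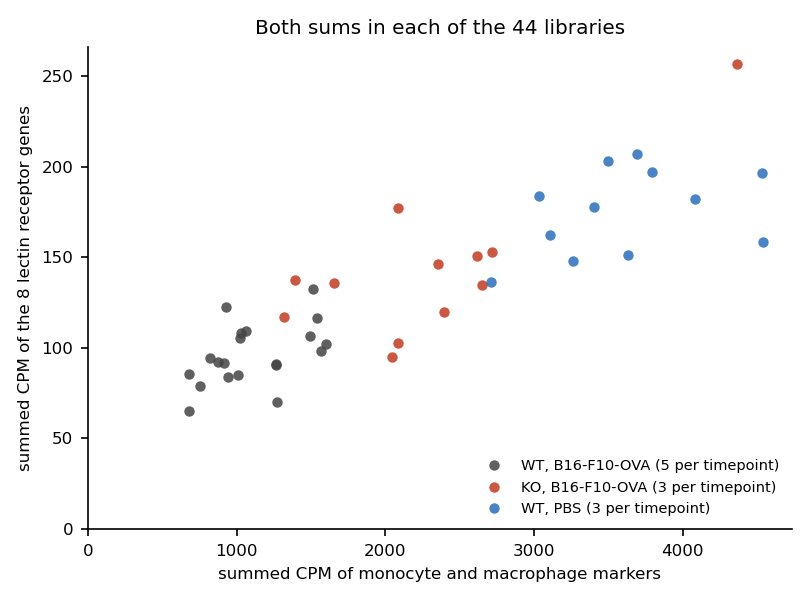
Summed CPM of the 8 lectin genes (vertical) against summed CPM of the listed monocyte and macrophage markers (horizontal) in each of the 44 libraries, on linear axes from 0; WT in grey, libraries labelled KO in red and PBS in blue. The lectin sums range from 65.2 to 132 in WT, 95.01 to 257 in libraries labelled KO and 136 to 207 in PBS, and the groups follow each other in the same order on both axes, with overlap.

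The design also asked whether the genes varied with the time of injection within each group. In WT, 1 of the 8 genes was called over the 4 timepoints (limma, adjusted p under 0.05), where 5.28% of all genes tested were called, and 4 had an unadjusted p under 0.05, against 23.1% of all genes. The called gene was Clec4n. In libraries labelled KO none of the 8 was called in the time course (0% of all genes called), and 3 had an unadjusted p under 0.05 (Clec2d, Clec4n and Clec4b1), against 10.3% of all genes. In PBS none was called (0% of all genes called), and 1, Clec4d, had an unadjusted p under 0.05, against 7.44%.

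Clec4n in WT read 8.60, 9.55, 6.67, 6.31 and 5.66 CPM at ZT3, then 7.10, 4.60, 3.80, 3.28 and 2.72 at ZT9. It read 13.6, 10.95, 5.46, 14.4 and 15.4 at ZT15, and 8.31, 7.16, 5.08, 6.14 and 6.75 at ZT21. All but 1 of the ZT15 libraries exceeded every library of the other timepoints, and 4 of the 5 ZT9 libraries were below every other library. The group means differed by up to 1.36 on the log2 scale, a 2.57-fold range, between ZT15 and ZT9 (adjusted p = 0.0213). The call was lost without ZT9 replicate 4 or without ZT15 replicate 1, 4 or 5, with an adjusted p of at most 0.0579.

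In libraries labelled KO, Clec4n had the same order of means, with 12.3, 10.3 and 15.04 CPM at ZT3, 7.12, 8.34 and 12.1 at ZT9, 25.7, 26.4 and 13.2 at ZT15 and 9.95, 9.96 and 11.4 at ZT21. The range of 1.17 was not called with these 12 libraries (adjusted p = 0.359). In PBS the values were 16.2, 18.0 and 18.4 at ZT3, 13.9, 15.6 and 23.4 at ZT9, 16.5, 28.1 and 32.1 at ZT15 and 28.5, 17.2 and 22.7 at ZT21. These overlapped between all timepoints, with a range of 0.51 (adjusted p = 0.760). The time profile of Clec4n was not called as different between WT and libraries labelled KO (interaction, adjusted p = 0.856) or between WT and PBS (adjusted p = 0.577).

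The monocyte and macrophage sum of WT libraries was also highest at ZT15 (1267 to 1602 CPM, against 681 to 926 at ZT9), and 10 of its 20 genes were called in the WT time course, 8 of them highest at ZT15 and lowest at ZT9. Among the other C-type lectins 9 of 29 were called, against 5.28% of all genes, 8 of them with that profile: Clec4a1 (range 1.23), Cd209d (2.26), Mgl2 (2.69), Clec4a3 (1.37), Clec10a (1.77), Cd209e (3.02), Cd209a and Clec4a2. The other, Klrb1b, was highest at ZT3. Of the cytokine and early genes 7 of 23 were called, led by Egr1 (2.27), Tgfbi (1.06), Tnf (1.57), Ccl4 (1.83), Ccl3 (1.51) and Il1b (1.49). Of the 34 signalling genes 2 were called, with other profiles: Fgr (0.75) was highest at ZT3 and lowest at ZT9, and Malt1 (1.07) was highest at ZT9 and lowest at ZT15. Of the 13 inhibitors 1 was called, Dok2 (0.87), highest at ZT15 and lowest at ZT9. The summed genes of dissociation stress ranged from 6777 to 9985 CPM at ZT15 against 5331 to 7277 at ZT9 in WT, and 5 of the 15 were called, all highest at ZT15. The sum of the general DC markers ranged from 30658 to 36631 CPM at ZT15 against 25433 to 29829 at ZT9, with 0 of the 11 called and 6 at an unadjusted p under 0.05. Of the 13 markers of type 2 conventional DCs 4 were called and of the 11 of plasmacytoid DCs 2, all highest at ZT15 and lowest at ZT9. Clec10a, Mgl2 and Cd209a among the type 2 markers are lectins already counted. Other profiles were found for 3 called T cell markers of 19, highest at ZT21 and lowest at ZT9, and for 3 called NK markers of 11, Ncr1, Nkg7 and Klre1, which were highest at ZT3, ZT21 and ZT15. Of the 12 type 1 DC markers 1 was called, Ppt1 (0.45), highest at ZT15 and lowest at ZT3. The sum of the 12 had its lowest median at ZT15 (891 CPM, against 1040 at ZT9), unlike Ppt1. The part of these markers in the Clec4n time course was not tested.

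**Figure D4:**
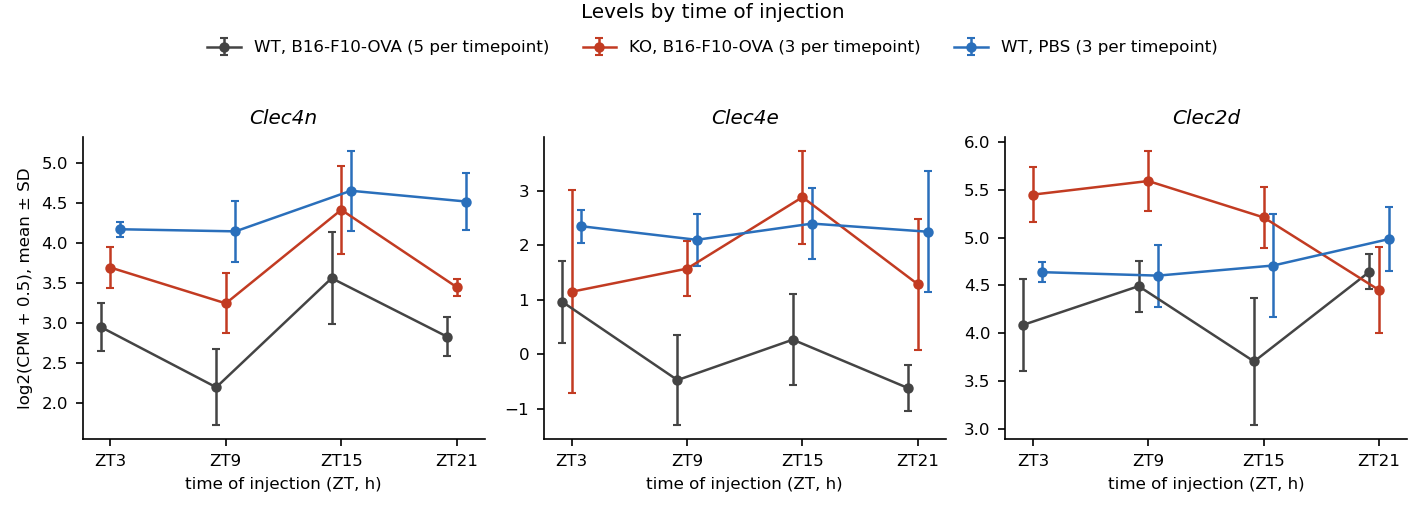
Log2(CPM + 0.5) of Clec4n, Clec4e and Clec2d by time of injection, as group means with error bars of 1 SD, for WT (grey, 5 libraries per timepoint), libraries labelled KO (red, 3) and PBS (blue, 3). Clec4n is lowest at ZT9 and highest at ZT15 in WT and in libraries labelled KO, whereas Clec2d in libraries labelled KO is lowest at ZT21.

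Clec4e and Clec2d stood near the threshold in the WT time course. Clec4e in WT was highest at ZT3 with 3.25, 2.57, 0.622, 0.996 and 0.980 CPM and lowest at ZT21 with 0, 0.0402, 0.398, 0.0409 and 0.390, a range of 1.59 (adjusted p = 0.0731). The adjusted p ranged from 0.0344 to 0.144 when 1 library was left out. This range of Clec4e was 1.11 with a pseudocount of 1 and 2.79 with 0.1. Clec2d in WT was lowest at ZT15 with 11.5, 28.7, 8.83, 9.52 and 11.05 and highest at ZT21 with 23.3, 30.7, 22.3, 23.6 and 23.4, a range of 0.94 (adjusted p = 0.0953). Replicate 2 of ZT15 stood apart from the other 4 libraries, and without it the adjusted p was 0.0058. It was 0.186 without replicate 3 of ZT15 and 0.140 with median-of-ratios scaling, and Clec2d was called with array weights (adjusted p = 0.0113). The remaining 5 genes had adjusted p of 0.212 to 0.523.

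In libraries labelled KO, Clec2d read 51.8, 44.6 and 34.8 CPM at ZT3, 48.9, 58.8 and 37.8 at ZT9, 28.2, 40.2 and 43.0 at ZT15 and 14.99, 27.7 and 23.5 at ZT21. All ZT9 values lay above all ZT21 values. In WT at the same pair of timepoints it read 28.5, 25.4, 18.7, 19.5 and 19.6 at ZT9, which overlaps its ZT21 values. The KO difference was accordingly 1.36 at ZT3, 1.098 at ZT9 and 1.505 at ZT15 and -0.19 at ZT21. The interaction of genotype with time did not pass the test for Clec2d over all genes (adjusted p = 0.101). It was called without WT ZT15 replicate 2 (adjusted p = 0.0357) and with array weights (adjusted p = 0.0185). The adjusted p was 0.237 without replicate 2 of KO ZT15 and replicate 1 of KO ZT21, a choice made after seeing the data.

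Rhythms of a 24-h period were tested with a cosinor. None of the 8 genes was called in WT (0.0251% of all genes called), in libraries labelled KO (0%) or in PBS (0%). At an unadjusted p under 0.05 there were 0 in WT (9.2% of all genes), 1 in libraries labelled KO (Clec2d, highest near ZT8.21, 10.5%) and 1 in PBS (Clec7a, highest near ZT4.43, 7.38%). In the comparison of ZT9 with ZT21, which required a 2-fold change, none was called in WT (0.0669% of all genes called), in libraries labelled KO (0.00836%) or in PBS (0%). At an unadjusted p under 0.05 there were 1 in WT (Clec4n, -0.63, 11.5% of all genes), 1 in libraries labelled KO (Clec2d, 1.14, adjusted p = 0.226, 10.9%) and 0 in PBS (5.32%).

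Whether time profiles differed between groups was tested as an interaction. None of the 8 was called for genotype by time (0.0502% of all genes called), and 1, Clec2d, had an unadjusted p under 0.05, against 18.3% of all genes. For treatment by time none was called (0% of all genes called) and 0 had an unadjusted p under 0.05, against 11.9%. With 3 libraries per timepoint in the groups labelled KO and PBS, differences between profiles that were not called are not shown to be absent: the largest spread of the KO difference across timepoints, 2.43 for Clec4e, had an adjusted p of 0.307. Without KO ZT3 replicate 2, the library listed at 0, that spread was 1.36 (adjusted p = 0.650), under the spreads of Clec4d (1.74) and Clec2d (1.70) in all libraries. With all libraries, the spread of Clec4e was 1.92 with a pseudocount of 1 and 3.71 with 0.1.

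The genes most like each lectin gene over the 44 libraries were found by Pearson correlation of log2 values. The libraries share their group means, so the correlation after removal of the 12 condition means is given in brackets. Clec4n was most like the macrophage lysozyme Lyz2 with 0.916 (0.723), Ly6e with 0.907 (0.474) and the complement factor Cfp with 0.903 (0.465). Clec4e was most like the leukotriene receptor Ltb4r1 with 0.834 (0.357), the phagocyte oxidase chain Cybb with 0.822 (0.467) and Ccr2 with 0.821 (0.416). Clec4b1 was most like the lectins Clec10a with 0.855 (0.701) and Mgl2 with 0.842 (0.754), and H2-DMb1 with 0.853 (0.816).

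Clec7a was most like Gm6377 with 0.886 (0.593), the chemokine Ccl4 with 0.874 (0.627) and the plasmacytoid DC lectin Siglech with 0.862 (0.425). For Clec5a these were Cish with 0.775 (0.499), Pla2g2d with 0.758 (0.527) and Il22ra2 with 0.757 (0.466). Clec2d was most like Samsn1 with 0.765 (0.530), Kbtbd3 with 0.748 (0.735) and Fam133b with 0.734 (0.659). Clec12a was most like Tomm20 with 0.693 (0.721), Lsm4 with 0.688 (0.558) and the ribosomal protein gene Rpl4 with 0.686 (0.695). Clec4d, low in most libraries, reached 0.582 (0.640) with Ust, 0.566 (0.484) with Ankrd37 and 0.552 (0.568) with Ccl9.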

How the data were processed

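RNA of sorted lymph node DCs was sequenced as single 50-base reads from SMART-Seq v4 and Nextera XT libraries. The authors aligned reads to mm10 with STAR (2.7.0), counted them per gene with HTSeq (0.9.1) and scaled counts by library size with edgeR. The values the authors deposited are CPM for 14699 genes in 44 libraries, summing to 1000000 per library. Dividing each value by the smallest step of its library gave whole reads for 89.1% to 91.6% of values (tolerance 0.02 reads), so no count test was run, but the step gave the depth. No 2 libraries held identical values.

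Groups and replicate numbers came from the sample titles. Genes reaching 1 CPM in at least 5 libraries (11963) were tested as log2(CPM + 0.5) with limma (3.58.1, R 4.3.3) and Benjamini-Hochberg adjustment over all of them, called at an adjusted p under 0.05. Means of genotype, treatment and time were fitted per condition, with F tests for time courses, interactions and the 24-h cosinor. Tables and sequences were handled in Python (3.11.15). The fits were tested on simulated data with independent normal noise. The simulation held no difference in depth or scaling between groups and does not cover these features of the data. The members and gene lists were chosen with earlier results of these data known. Named are the 8 members, Clec9a, Arntl, up to 6 called genes per list by adjusted p, called neighbours within 1 Mb of Clec9a or 0.25 Mb of Clec4n, and the 3 most correlated genes per member. Further genes (Fcer1g, Tyrobp, Syk, Card9, Ptpn6, Vav2, Hcst, Csf1r, Ccr2, S100a8, Flt3 and H2-Ab1, among others) were named for their role after their values were seen. Alternatives changed the pseudocount (1 or 0.1), the filter, the scaling, the moderation, library weights and the replicate block, and left out each library in turn. The library weights (array weights in limma) gave convergence warnings for some genes in some settings, and their values serve only as an alternative. Promoter windows and positions are from RefSeq (GRCm38.p6) and GENCODE.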

Additional observations from a re-analysis of the deposited data

Results flagged for a closer look

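Among the 32 groups of 5 WT libraries formed by the 8 genes and 4 timepoints, 6 held a library whose gap to its nearest neighbour took up most of the range of its group (Dixon's criterion at 95%). Chance gives about 1 in 20 groups if values are normally distributed and groups independent. The criterion was applied to CPM without a log, and the groups of different genes share the same WT libraries. The number of groups flagged therefore cannot be set against that rate. In each of the 6 the library apart was the highest. Clec2d read 28.7 CPM in WT ZT15 replicate 2 and 30.7 CPM in WT ZT21 replicate 2. Clec5a read 9.77 CPM in WT ZT21 replicate 1. Clec4b1 read 7.64 CPM in WT ZT15 replicate 5. The low genes Clec4d and Clec4e read 1.101 CPM in WT ZT15 replicate 1 and 1.47 CPM in WT ZT9 replicate 3. Groups of 3 libraries were not examined this way, which leaves out the 47.3 CPM of Clec4b1 in KO ZT15 replicate 2.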

How the results depend on the processing

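No value of the 8 genes reversed its direction where it was called. The number of lectin genes higher in libraries labelled KO (5) fell to 3, and that lower with tumour cells (7) to 4, when genes needed a mean of at least 10 CPM, which tests fewer of the 8. Leaving out each library in turn gave 5 to 6 and 7 to 8. In the WT time course 1 gene was called, 2 with array weights (Clec4n and Clec2d) and 0 to 2 when 1 library was left out: 0 without WT ZT9 replicate 4 or WT ZT15 replicate 1, 4 or 5, and 2 without WT ZT3 replicate 3, WT ZT9 replicate 3 or WT ZT15 replicate 2. For genotype by time the count was 0, 1 with array weights (Clec2d) and 0 to 1 in the omissions. The cause of these shifts was not tested. Clec4b1 was called higher in libraries labelled KO with array weights and in 3 omissions (adjusted p as low as 0.0267), and had an adjusted p of 0.194 without KO ZT15 replicate 2. Clec4d was called lower with tumour cells in 2 omissions (adjusted p as low as 0.0294, and up to 0.305 over the other settings).

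Replicate numbers did not pair the libraries: same-numbered libraries correlated at -0.0038 (genotype) and -0.0089 (treatment) on average, and 5 of 32 correlated best with their own number. With the replicate number as a block, the counts of lectin genes stayed at 5, 7 and 1, and Clec5a in libraries labelled KO was at 0.69 (limma, adjusted p = 0.0442). The block gave 341 genes in the WT time course.

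Counts over all genes moved more. The WT time course (632 genes) ranged up to 2462 with array weights and from 278 to 1313 in the omissions, and the genotype by time interaction (6) up to 1071 with array weights and 311 without WT ZT3 replicate 3. For the WT cosinor (3) the range was 1 to 147, for ZT9 against ZT21 in WT (8) it was 1 to 47 and in libraries labelled KO (1) 0 to 44. Where no gene was called, settings gave up to 22 for the time course and 5 for the cosinor in libraries labelled KO, 3 for the time course and 1 for the cosinor in PBS, and 38 for treatment by time (without WT ZT15 replicate 2). WT libraries were mostly the shallowest, and Clec4e was listed at 0 in 3 of them. How far depth limits Clec4d and Clec4e was not tested.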
